A study of Mus musculus with 10 samples.

Results

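The messenger RNAs of 10 transporters that carry small peptides and amino acids across the membranes of intestinal epithelial cells were measured in 2 populations of sorted mouse small intestinal cells. The genes were chosen by name (Slc15a1, Slc6a19, Slc6a20a, Slc3a1, Slc7a9, Slc7a7, Slc7a8, Slc3a2, Slc1a1 and Slc36a1), and all 10 were found among the 54532 genes of the count table and passed the filter on low counts. RNA-Seq was performed on dissociated small intestinal epithelium of 5 litter-matched mice of the Gucy2c-GFP line, 10 weeks old and on the outbred CD1 (ICR) background. In these mice a transgene places GFP under the promoter of Gucy2c, the receptor for the intestinal hormones guanylin and uroguanylin, so the sort followed reporter brightness and no lineage marker. From each mouse (taken from the numbers 2, 7, 12, 14 and 15 that the labels give in both groups) 20000 bright cells (GUCY2Chi) and 20000 cells of intermediate brightness (GUCY2Cmed, the bulk of the epithelium) were collected, which gave 5 libraries per group, and the mice carried no other allele or treatment named in the labels.

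Dietary protein reaches the absorptive enterocyte as free amino acids and as dipeptides and tripeptides. Carriers in the apical brush border take these up on gradients of protons or sodium, cytosolic peptidases split the peptides, and basolateral exchangers pass amino acids on to the blood. Several of the carriers work as pairs, in which a heavy chain (Slc3a1 at the apical membrane, Slc3a2 at the basolateral membrane) brings a light chain of the Slc7 family to the cell surface. Enteroendocrine cells, the hormone-secreting cells of the same epithelium, use some of these carriers to sense nutrients.

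The libraries held between 10903958 and 15307932 gene counts. Gucy2c was 1322 ± 526 cpm (counts scaled to TMM-adjusted library size, mean ± SD, n = 5) in GUCY2Chi and 404 ± 64.7 cpm in GUCY2Cmed cells, and it was higher in GUCY2Chi cells of 5 of 5 mice (log2 fold change 1.71, SE 0.32, edgeR adjusted p = 0.00187). All 20 enteroendocrine markers examined were higher in GUCY2Chi cells, where 13.9% of all genes tested were higher. The list includes hormones that the paper reported among the most upregulated genes in these same libraries. The count is therefore a description and not separate support. In enterocyte markers the GUCY2Chi libraries of mice 12 and 15 stood apart. The summed level of 20 such markers was 36916 and 37751 cpm in them and between 5861 and 7074 cpm in the other GUCY2Chi libraries. In GUCY2Cmed libraries it was 70403 to 87358 cpm. Of these 20 markers 4 were lower in GUCY2Chi cells with all libraries and 18 without those 2, and none of the 20 was at 0 in all libraries. Among the other cell types, 5 of 7 proliferation markers were lower, 2 of 3 tested mesenchymal and endothelial and 2 of 4 tested hepatocyte markers were higher (0, 0 and 1 with the mouse as a block), and 0 of 36 tested goblet, Paneth, tuft, stem, immune and forebrain neuron markers passed in edgeR (2 in DESeq2, 0 in limma-voom and 12 at an unadjusted p under 0.05). Results are therefore also given without the GUCY2Chi libraries of mice 12 and 15, and the part of enterocyte RNA in the results was not tested. Because these 2 libraries were chosen by their enterocyte markers, genes that vary with those markers change more without them through the choice alone. Fits without them are therefore descriptions and not separate support. The remaining GUCY2Chi libraries were not uniform either. Summed Paneth markers were at 45619, 6163, 10320, 26810 and 7932 cpm in GUCY2Chi mice 2, 7, 12, 14 and 15. Summed goblet markers were at 23420 cpm in GUCY2Chi mouse 2 and at 3003 to 9746 cpm in the other GUCY2Chi libraries. Summed enteroendocrine markers were at 145216, 141177, 102568, 169744 and 42115 cpm in GUCY2Chi mice 2, 7, 12, 14 and 15. In such bulk libraries fewer cells of a type and less RNA per cell cannot be told apart.

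All 10 transporters had a lower level in the GUCY2Chi than in the GUCY2Cmed library of every mouse. The share of all genes lower in every mouse was not computed, so how unusual this count is cannot be said. By the looser rule of a log2 fold change below 0, 7129 of 15703 genes tested were lower. In the test over all genes (edgeR quasi-likelihood, Benjamini-Hochberg adjusted p under 0.01) 4 of the 10 were lower in GUCY2Chi cells, namely Slc7a8, Slc3a2, Slc1a1 and Slc3a1, and 0 were higher, nor was any higher in limma-voom, in DESeq2 or at an unadjusted p under 0.05. Of 15703 genes tested, 8.79% were lower and 13.9% higher by the same rule. The median log2 fold change was -1.51 over the 10 transporters and 0.09 over all genes tested. Without the GUCY2Chi libraries of mice 12 and 15, Slc6a20a, Slc7a9 and Slc7a7 also passed, which made 7 of 10, where 14.4% of 15160 genes were lower. The calls added in this fit follow a choice of libraries by enterocyte markers and are not separate support. In that fit the log2 fold changes of Slc7a8, Slc3a2, Slc3a1, Slc1a1 and Slc36a1 were -2.55, -2.18, -2.03, -2.03 and -0.79, and the first 4 of these passed. The 2 groups of libraries did not overlap for 8 of the 10, the exceptions being Slc15a1 and Slc6a19, against 13.2% of all genes that were lower and 16.7% that were higher without overlap. With the mouse as a block, Slc1a1 lost its call, which left 3 of 10, while 779 genes were lower and 1294 higher in place of 1381 and 2186. At an adjusted p under 0.05, 9 of 10 were lower, all but Slc6a19, and 0 higher, where 17.6% of all genes were lower and 21.4% higher.

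**Figure D1:**
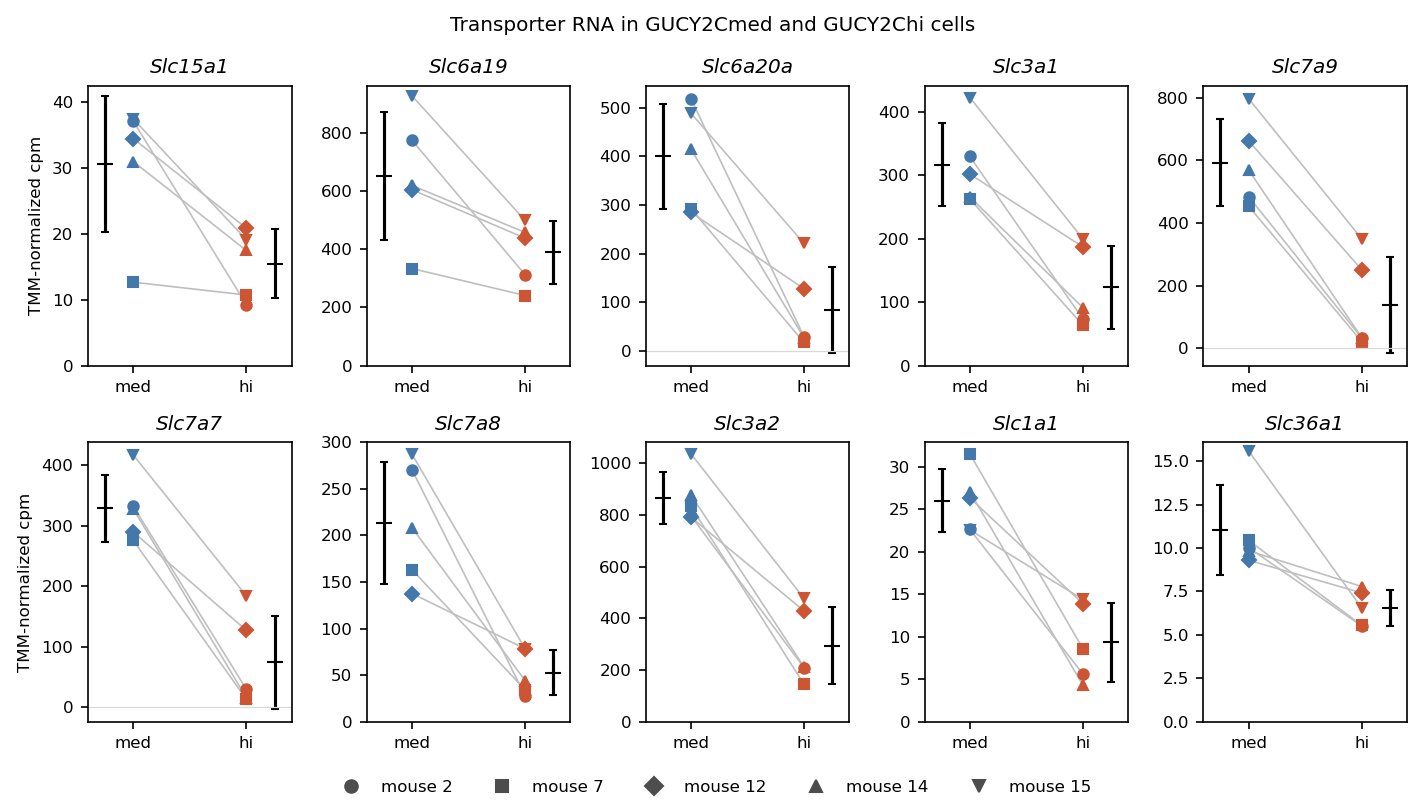
Level of each of the 10 transporters in the 5 GUCY2Chi and 5 GUCY2Cmed libraries, in TMM-normalized cpm on linear axes of their own, with a point for each library, lines joining the libraries of a mouse, and bars for the mean ± SD. The groups overlap for Slc15a1 and Slc6a19 and do not for the other 8.

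**Figure D2:**
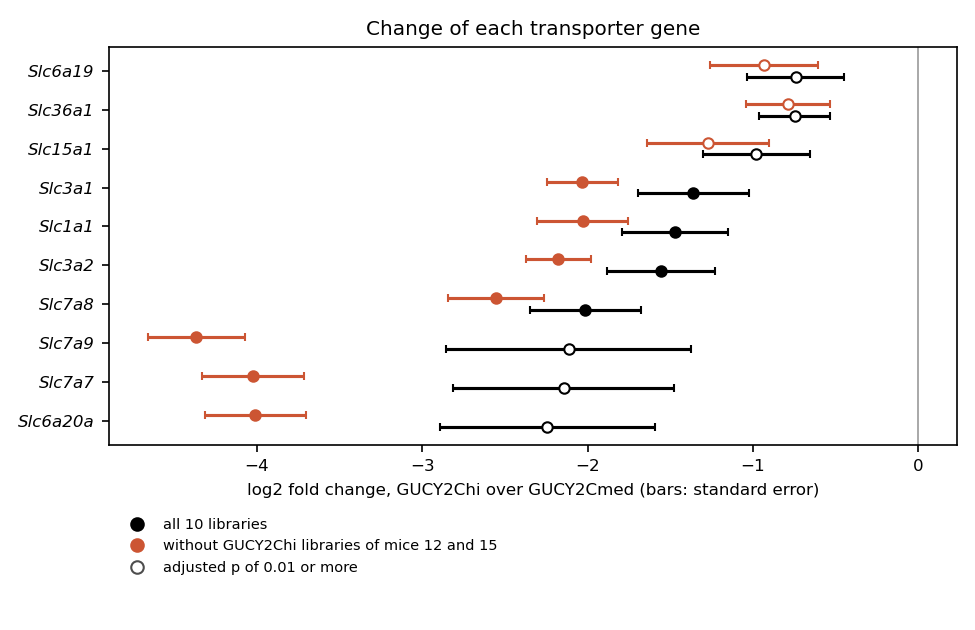
Log2 fold change of each transporter, GUCY2Chi minus GUCY2Cmed, with its SE, for all 10 libraries (black) and without the GUCY2Chi libraries of mice 12 and 15 (red), where open points mark an adjusted p of 0.01 or more. All values lie below 0, and leaving out those libraries moves Slc7a9, Slc7a7 and Slc6a20a the farthest, to between -4.36 and -4.01.

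Among the basolateral carriers, Slc3a2 (chr19:8706882-8723369, minus strand, GRCm38) encodes the heavy chain CD98 that Slc7a7 and Slc7a8 need to reach the membrane. In GUCY2Chi cells of mice 2, 7, 12, 14 and 15 it was at 210, 145, 429, 213 and 477 cpm, and in GUCY2Cmed cells of the same mice at 797, 833, 792, 878 and 1037 cpm. The highest GUCY2Chi libraries, those of mice 12 and 15, remained below every GUCY2Cmed library. Slc3a2 was 2.94-fold lower in GUCY2Chi cells (295 ± 148 against 867 ± 101 cpm, n = 5, log2 fold change -1.56, SE 0.32, adjusted p = 0.00355). It passed in 5 of 10 fits that each left out 1 library and missed the threshold without GUCY2Chi mouse 2 or 14 or GUCY2Cmed mouse 2, 12 or 15, with adjusted p of at most 0.0152.

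Slc7a8 (chr14:54722209-54781946, minus strand) encodes a light chain that exchanges neutral amino acids. Its level was 28.2, 34.6, 78.6, 44.2 and 78.3 cpm in GUCY2Chi cells and 270, 163, 138, 208 and 287 cpm in GUCY2Cmed cells of mice 2, 7, 12, 14 and 15. All 5 GUCY2Chi libraries lay below all 5 GUCY2Cmed libraries. The gene was 4.04-fold lower in GUCY2Chi cells (52.8 ± 24.1 against 213 ± 65.1 cpm, log2 fold change -2.01, SE 0.34, adjusted p = 0.00108). It was the only transporter of the 10 that passed in each of the 10 fits without 1 library.

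Slc7a7 (chr14:54369442-54417780, minus strand) encodes the light chain that releases dibasic amino acids such as lysine and arginine to the blood in exchange for neutral ones. It was at 29.99, 13.6, 127, 16.2 and 184 cpm in GUCY2Chi cells and at 332, 276, 290, 328 and 417 cpm in GUCY2Cmed cells of mice 2, 7, 12, 14 and 15. The 3 GUCY2Chi libraries of mice 2, 7 and 14 were the lowest, those of mice 12 and 15 lay between them and the GUCY2Cmed libraries, and the groups did not overlap. The log2 fold change of -2.14 (SE 0.67) was larger than that of Slc7a8 but its adjusted p of 0.0244 missed the threshold. Without the GUCY2Chi libraries of mice 12 and 15 the log2 fold change was -4.02 and passed, and leaving out GUCY2Chi mouse 15 alone was enough for it to pass (adjusted p = 0.0055).

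At the apical membrane, Slc3a1 and Slc7a9 form the heavy and the light chain of the carrier for cystine and dibasic amino acids, and loss of either causes cystinuria. Slc3a1 (chr17:85028347-85064243, plus strand) was at 73.6, 63.9, 187, 91.3 and 200 cpm in GUCY2Chi cells and at 330, 263, 302, 266 and 422 cpm in GUCY2Cmed cells of mice 2, 7, 12, 14 and 15. The groups did not overlap, with a gap between 200 cpm in GUCY2Chi mouse 15 and 263 cpm in GUCY2Cmed mouse 7. Slc3a1 was 2.57-fold lower in GUCY2Chi cells (123 ± 65.1 against 316 ± 65.3 cpm, log2 fold change -1.36, SE 0.34, adjusted p = 0.00833). This call lay near the threshold. It held without GUCY2Chi mouse 12 or mouse 15 and was missed in the other 8 fits without 1 library, with adjusted p between 0.0119 and 0.0344. In those 8 fits the log2 fold change ran from -1.42 to -1.15.

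Slc7a9 (chr7:35448796-35466036, plus strand) was at 32.1, 20.3, 250, 33.1 and 349 cpm in GUCY2Chi cells and at 484, 454, 663, 569 and 798 cpm in GUCY2Cmed cells of mice 2, 7, 12, 14 and 15. The GUCY2Chi libraries divided into those of mice 2, 7 and 14, at or below 33.1 cpm, and those of mice 12 and 15 at several times that level, so that the SD (153 cpm) exceeded the mean (137 cpm). The groups did not overlap, and the log2 fold change of -2.12 (SE 0.74) had an adjusted p of 0.0401 and missed the threshold. Without the libraries of mice 12 and 15 it was -4.36 and passed.

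The promoters of Slc3a1, Slc7a9 and Slc6a20a, carriers of the apical membrane, are shown because they differ in which short motifs of intestinal transcription factors they hold. Each window runs from 250 bases before to 50 bases after the RefSeq start of GRCm38.p6, at chr17:85028097-85028396 on the plus strand for Slc3a1, chr7:35448842-35449141 on the plus strand for Slc7a9 and chr9:123678783-123679082 on the minus strand for Slc6a20a. Capitals mark matches on either strand.
Slc3a1: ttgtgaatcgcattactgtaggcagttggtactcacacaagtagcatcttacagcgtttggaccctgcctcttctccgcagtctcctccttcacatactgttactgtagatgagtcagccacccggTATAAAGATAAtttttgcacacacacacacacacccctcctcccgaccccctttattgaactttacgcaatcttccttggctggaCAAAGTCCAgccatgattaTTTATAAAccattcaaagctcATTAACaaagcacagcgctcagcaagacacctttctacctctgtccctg
Slc7a9: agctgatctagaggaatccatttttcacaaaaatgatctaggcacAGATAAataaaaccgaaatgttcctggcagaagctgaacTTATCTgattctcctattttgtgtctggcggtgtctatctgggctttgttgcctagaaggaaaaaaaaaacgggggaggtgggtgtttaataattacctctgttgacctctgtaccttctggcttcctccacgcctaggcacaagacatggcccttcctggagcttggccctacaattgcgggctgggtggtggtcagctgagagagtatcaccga
Slc6a20a: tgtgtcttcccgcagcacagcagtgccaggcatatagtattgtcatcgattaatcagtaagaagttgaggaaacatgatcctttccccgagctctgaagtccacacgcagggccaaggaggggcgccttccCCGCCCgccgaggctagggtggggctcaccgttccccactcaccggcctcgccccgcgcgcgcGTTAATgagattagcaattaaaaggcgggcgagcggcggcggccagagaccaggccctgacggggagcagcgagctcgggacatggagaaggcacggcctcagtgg
The Slc3a1 window held 3 matches to the core promoter element TATAAA, the first of which overlapped a match to AGATAA, the element read by GATA factors, while the remaining ones overlapped each other. It also held CAAAGTCCA, read by HNF4, and the reverse complement of GTTAAT, which is part of the site of HNF1. The Slc7a9 window held AGATAA on each strand, and the Slc6a20a window held the reverse complement of GGGCGG, the GC box, and GTTAAT. Of 32544 promoter windows of this length, 11.2% held AGATAA, 7.13% GTTAAT, 0.479% CAAAGTCCA, 13.6% TATAAA and 35.9% GGGCGG. Among the 10 transporters, AGATAA was found in 3, GTTAAT in 3, CAAAGTCCA in 1, TATAAA in 1 and GGGCGG in 5, while TTTATG (CDX) was found in 0 of 10 and 11.9% of all windows and TGATGNAA (ATF4) in 1 and 3.91%. Such matches are descriptions of letters, and binding was not measured. The RefSeq start used lay 12229 bases from the gene start of the count table for Slc6a19, 9472 for Slc3a2 and 296 for Slc7a9. For these genes the window may not be the promoter of the RNA that was counted. Slc7a9 had 2 windows and Slc7a7 had 5, of which only the nearest was searched.

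Slc6a20a (chr9:123634770-123678885, minus strand) encodes the sodium-coupled carrier of proline and other imino acids. It was at 29.1, 17.4, 128, 26.9 and 221 cpm in GUCY2Chi cells and at 519, 293, 285, 415 and 489 cpm in GUCY2Cmed cells of mice 2, 7, 12, 14 and 15. The pattern was that of Slc7a9, with GUCY2Chi mice 12 and 15 between the other GUCY2Chi libraries and the GUCY2Cmed libraries. The log2 fold change of -2.24 (SE 0.65, adjusted p = 0.0178) missed the threshold, and it was -4.01 and passed without those libraries. The near copy Slc6a20b could share reads with it, and at 2.16 ± 2.63 against 8.52 ± 1.88 cpm it held few counts (log2 fold change -1.98, SE 0.79, adjusted p = 0.0685). Without GUCY2Chi mice 12 and 15 Slc6a20b passed as well (-4.69, adjusted p = 1.37e-05).

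Slc6a19 (chr13:73679745-73704865, minus strand) encodes the main sodium-coupled carrier of neutral amino acids in the brush border. It was at 312, 241, 437, 457 and 498 cpm in GUCY2Chi cells and at 773, 333, 604, 618 and 926 cpm in GUCY2Cmed cells of mice 2, 7, 12, 14 and 15. Although the GUCY2Chi library was the lower one in each mouse, GUCY2Cmed mouse 7 lay among the GUCY2Chi libraries. The difference of 389 ± 108 against 651 ± 221 cpm had a log2 fold change of -0.74 (SE 0.29) and an adjusted p of 0.0655, and it did not pass without GUCY2Chi mice 12 and 15 either (-0.93, adjusted p = 0.0395).

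Slc15a1 (chr14:121459621-121505252, minus strand), the proton-coupled carrier of dipeptides and tripeptides, was at 9.28, 10.7, 20.9, 17.5 and 19.1 cpm in GUCY2Chi cells and at 37.2, 12.7, 34.5, 31.0 and 37.5 cpm in GUCY2Cmed cells of mice 2, 7, 12, 14 and 15. The overlap came from GUCY2Cmed mouse 7 alone, which was below 3 of the GUCY2Chi libraries. The log2 fold change was -0.98 (SE 0.32, adjusted p = 0.0311), and without that library it was -1.18 and passed (adjusted p = 0.0054). It missed the threshold without GUCY2Chi mice 12 and 15 (-1.27, adjusted p = 0.0174).

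Slc1a1 (chr19:28835049-28913960, plus strand), the carrier of glutamate and aspartate, was at 5.65, 8.62, 13.9, 4.32 and 14.4 cpm in GUCY2Chi cells and at 22.7, 31.6, 26.4, 27.1 and 22.6 cpm in GUCY2Cmed cells of mice 2, 7, 12, 14 and 15. No GUCY2Chi library reached the lowest GUCY2Cmed library. Slc1a1 was 2.77-fold lower in GUCY2Chi cells (9.39 ± 4.64 against 26.1 ± 3.71 cpm, log2 fold change -1.47, SE 0.32, adjusted p = 0.00456). The call was lost with the mouse as a block (adjusted p = 0.0108) and in 6 of 10 fits without 1 library, those without GUCY2Chi mouse 2 or 7 or GUCY2Cmed mouse 2, 12, 14 or 15, with adjusted p of at most 0.0179.

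Slc36a1 (chr11:55204350-55236330, plus strand), a proton-coupled carrier of small amino acids found at the brush border and on lysosomes, was at 5.51, 5.55, 7.42, 7.79 and 6.55 cpm in GUCY2Chi cells and at 10.0, 10.4, 9.29, 9.84 and 15.6 cpm in GUCY2Cmed cells of mice 2, 7, 12, 14 and 15. The groups did not overlap, and GUCY2Chi mice 12 and 15 did not stand above the other GUCY2Chi libraries. The log2 fold change of -0.75 (SE 0.21, adjusted p = 0.0166) missed the threshold.

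Levels could be ordered between genes only per length, here as cpm per kb of the gene length in the table. In GUCY2Cmed cells the order of mean levels was Slc3a2 (246 cpm per kb), Slc7a9 (222), Slc3a1 (137), Slc6a19 (130.0), Slc7a7 (99.1), Slc6a20a (97.9), Slc7a8 (42.6), Slc15a1 (6.26), Slc1a1 (4.22) and Slc36a1 (1.96). In GUCY2Chi cells it was Slc3a2 (83.5), Slc6a19 (77.7), Slc3a1 (53.4), Slc7a9 (51.2), Slc7a7 (22.4), Slc6a20a (20.7), Slc7a8 (10.5), Slc15a1 (3.17), Slc1a1 (1.52) and Slc36a1 (1.17). Neighbours in this order were set against the larger of their SDs. In GUCY2Cmed cells the steps from Slc3a2 to Slc7a9, from Slc3a1 through Slc6a19 and Slc7a7 to Slc6a20a, and from Slc15a1 to Slc1a1 were within it. In GUCY2Chi cells all steps were within it except those from Slc7a8 to Slc15a1 and from Slc15a1 to Slc1a1. In the deposited FPKM, which rest on other gene lengths, Slc3a1 moved to rank 6 in GUCY2Cmed and rank 5 in GUCY2Chi cells, and Slc1a1 ranked above Slc15a1 in GUCY2Cmed cells.

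The level in GUCY2Chi cells as a percentage of that in GUCY2Cmed cells of the same mouse set the transporters beside the enterocyte markers, whose summed level was 7.58%, 8.33%, 46.0%, 8.85% and 43.2% in mice 2, 7, 12, 14 and 15. Slc7a9 kept 6.63%, 4.47%, 37.7%, 5.81% and 43.8%, and Slc6a20a and Slc7a7 ran close to it, with ranges of 5.62% to 45.2% and 4.92% to 44.2%. Slc6a19 kept 40.4%, 72.2%, 72.5%, 73.9% and 53.8%, above the summed enterocyte markers in 5 of 5 mice. Slc15a1, Slc3a1, Slc3a2 and Slc1a1 were also above this sum in 5 of 5 mice and Slc7a8 and Slc36a1 in 4 of 5. The margins of these genes were smaller in mice 12 and 15 than in mice 2, 7 and 14. In mice 12 and 15 Slc6a19 was at 1.58 and 1.25 times the sum, Slc3a1 at 1.35 and 1.09 and Slc15a1 at 1.32 and 1.18. Slc3a2 was at 1.18 and 1.07 times and Slc1a1 at 1.15 and 1.48 times the sum in those mice. Slc7a7 was above the sum in 2 of 5 mice, and Slc7a9 and Slc6a20a in 1 of 5. In mouse 2 the share ran from 5.62% for Slc6a20a to 55.0% for Slc36a1. These percentages are descriptions without a test, and their relation to carry-over of enterocytes was not tested.

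**Figure D3:**
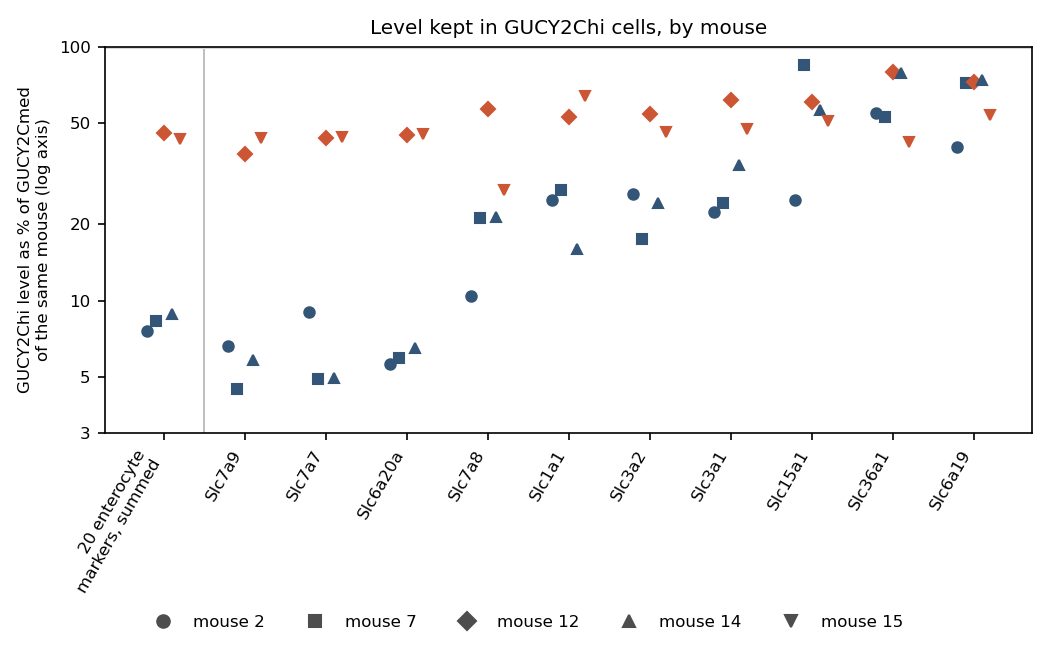
Level in GUCY2Chi cells as a percentage of GUCY2Cmed cells of the same mouse, for each transporter and for the summed enterocyte markers, on a log axis with 1 point per mouse and mice 12 and 15 in red. Slc7a9, Slc7a7 and Slc6a20a lie at 0.54 to 1.19 times the summed enterocyte markers of the same mouse. Slc6a19 lies above this sum in 5 of 5 mice, at 1.58 and 1.25 times it in mice 12 and 15.

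Ratios between partners within a library, taken on counts per kb and compared by exact two-sided permutation tests with Benjamini-Hochberg adjustment over 4 ratios, do not depend on library scaling. The Slc7a9 to Slc3a1 ratio was 0.376, 0.274, 1.15, 0.312 and 1.51 in GUCY2Chi cells and 1.27, 1.49, 1.89, 1.85 and 1.63 in GUCY2Cmed cells of mice 2, 7, 12, 14 and 15. It was lower in GUCY2Chi cells by 1.52 on the log2 scale (log2 difference -1.52, SE 0.52, n = 5, exact permutation p = 0.0238, adjusted p = 0.0423), with overlap from mouse 15. The Slc7a7 to Slc3a2 ratio ran from 0.0812 to 0.411 in GUCY2Chi and from 0.352 to 0.444 in GUCY2Cmed cells (log2 difference -1.20, SE 0.46, n = 5, exact permutation p = 0.0317, adjusted p = 0.0423). The light chains Slc7a9 and Slc7a7 were thus lower relative to their heavy chains in GUCY2Chi cells, and in both ratios the GUCY2Chi libraries of mice 12 and 15 lay nearest to GUCY2Cmed cells. The Slc7a8 to Slc3a2 ratio did not pass (log2 difference -0.38, SE 0.22, n = 5, exact permutation p = 0.143, adjusted p = 0.143), nor did it without GUCY2Chi mice 12 and 15 (-0.34, exact permutation p = 0.357). Without GUCY2Chi mice 12 and 15 the log2 differences of Slc7a9 to Slc3a1 and Slc7a7 to Slc3a2 were -2.34 and -1.90. Each had an exact permutation p of 0.0357, the smallest that the remaining libraries allow. The p of the Slc7a7 to Slc3a2 ratio was 0.0635 without GUCY2Chi mouse 2, 7, 12 or 14 or GUCY2Cmed mouse 2 or 15, and with sign changes within mice the p of this ratio and of Slc7a9 to Slc3a1 was 0.0625, the smallest that 5 mice allow.

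**Figure D4:**
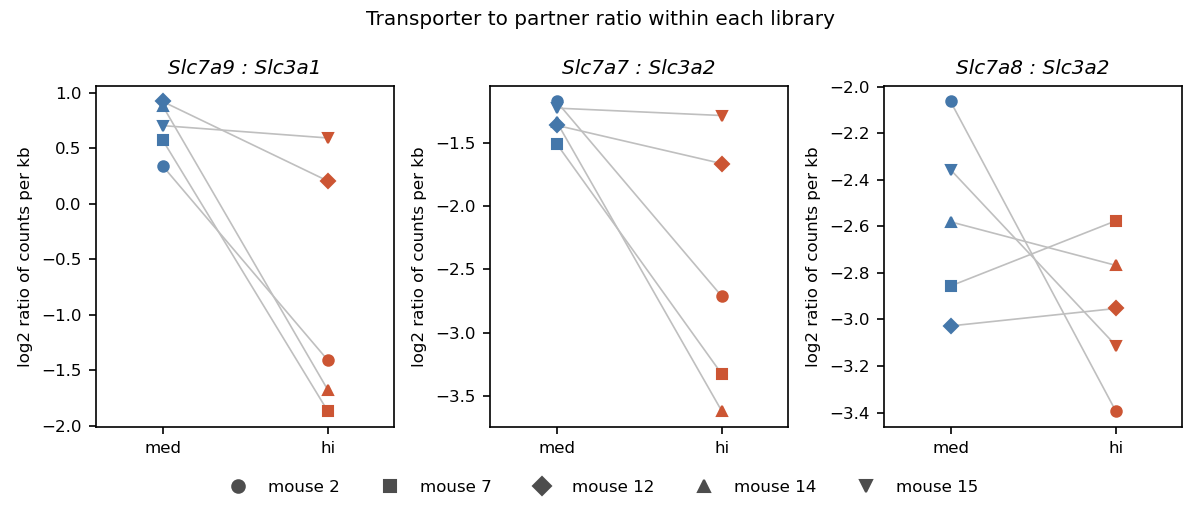
Log2 of the ratio of each transporter to its partner within a library, on counts per kb, for 5 GUCY2Chi and 5 GUCY2Cmed libraries with lines joining those of a mouse. The Slc7a9 to Slc3a1 and Slc7a7 to Slc3a2 ratios are lower in GUCY2Chi cells with overlap, and the Slc7a8 to Slc3a2 ratio did not pass.

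Slc6a19 needs a membrane partner for its place at the cell surface, and Cltrn (collectrin) is its partner in the kidney. Cltrn was at 202, 115, 70.8, 243 and 73.7 cpm in GUCY2Chi cells and at 0.468, 1.61, 0.936, 0.601 and 1.03 cpm in GUCY2Cmed cells of mice 2, 7, 12, 14 and 15. It was higher in GUCY2Chi cells of 5 of 5 mice (141 ± 78.1 against 0.928 ± 0.444 cpm, log2 fold change 7.23, SE 0.51, adjusted p = 4.82e-06) and passed with the mouse as a block, in 10 of 10 fits without 1 library and without GUCY2Chi mice 12 and 15 (7.65).

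**Figure D5:**
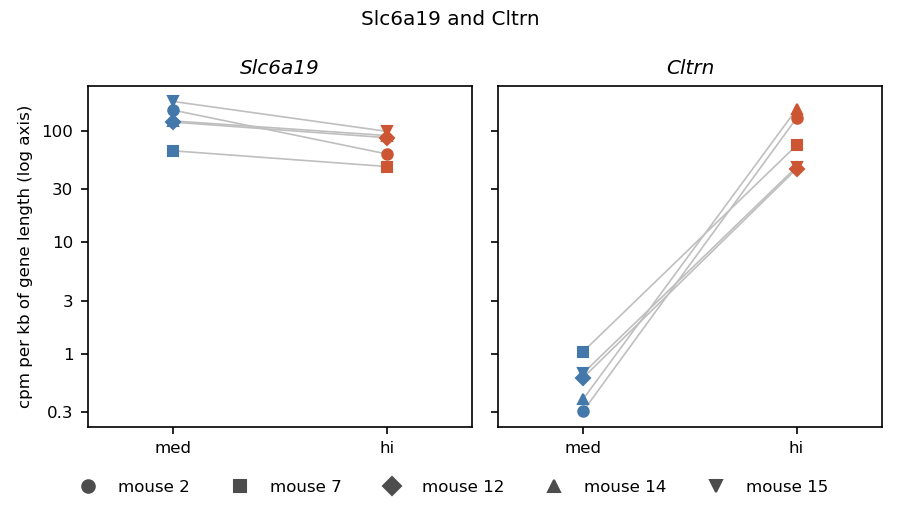
Levels of Slc6a19 and Cltrn in cpm per kb on a shared log axis, for 5 GUCY2Chi and 5 GUCY2Cmed libraries, with lines joining the libraries of a mouse. Cltrn is higher in the GUCY2Chi library of every mouse, while Slc6a19 levels overlap between the groups.

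Other genes that handle dietary peptides were examined as lists. Of all genes tested, 8.79% were lower and 13.9% higher in the fit with all 10 libraries. Of 13 tested brush border and luminal peptidases 5 were lower and 0 higher (median log2 fold change -2.34), and all 13 were lower without GUCY2Chi mice 12 and 15. They included Enpep, the glutamyl aminopeptidase (log2 fold change -2.67, adjusted p = 0.00964), Anpep, aminopeptidase N (-2.65, adjusted p = 0.00496), Mep1a, a meprin subunit (-2.15, adjusted p = 0.00623), and Dpp4, which removes dipeptides from peptide ends (-1.29, adjusted p = 0.00258, or 0.0104 with the mouse as a block). The calls of Enpep, Anpep and Mep1a were lost without GUCY2Chi mouse 2, 7 or 14 or GUCY2Cmed mouse 2, 12, 14 or 15, that of Enpep also without GUCY2Cmed mouse 7, with adjusted p of at most 0.0280, and that of Dpp4 without GUCY2Cmed mouse 15 (adjusted p = 0.0109). Of 11 tested cytosolic peptidases 6 were lower and 0 higher, 4 with the mouse as a block and 6 without GUCY2Chi mice 12 and 15. Cndp2, a dipeptidase, was at 263 ± 226 against 1479 ± 203 cpm (-2.49, adjusted p = 0.00488, or -3.90 without those libraries), and Lta4h, Pepd and Xpnpep1 had log2 fold changes of -1.91, -1.86 and -1.84 (-2.71, -2.84 and -2.46 without them). Xpnpep1 passed in 10 of 10 fits without 1 library and Lta4h in 8, with GUCY2Chi mouse 2 and GUCY2Cmed mouse 15 as the exceptions (adjusted p of at most 0.0106), and Cndp2 and Pepd in 3, those without GUCY2Chi mouse 12 or 15 or GUCY2Cmed mouse 7 (adjusted p of at most 0.0218 in the others).

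Of 9 tested partners and genes of the ion gradients 3 were lower, 6 without GUCY2Chi mice 12 and 15, and Cltrn alone was higher. The scaffold proteins Pdzk1 and Slc9a3r1, which anchor brush border carriers, had log2 fold changes of -1.99 (adjusted p = 0.00232) and -1.99 (adjusted p = 5.67e-04), and both passed in 10 of 10 fits without 1 library.

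Of 28 tested other amino acid carriers of the plasma membrane, 6 were higher and 1 was lower (3 and 1 with the mouse as a block, 8 and 4 of 25 without GUCY2Chi mice 12 and 15), with a median log2 fold change of 0.57. Slc7a5, another of the light chains that pair with Slc3a2, was at 9.75, 17.7, 10.4, 17.6 and 11.3 cpm in GUCY2Chi and 2.25, 2.33, 4.11, 3.60 and 3.77 cpm in GUCY2Cmed cells of mice 2, 7, 12, 14 and 15. It was higher without overlap (log2 fold change 2.05, SE 0.28, adjusted p = 3.07e-04), where Slc7a8 and Slc3a2 were lower. Slc7a4, a member of the cationic carrier family, was at 74.4 ± 25.6 against 17.8 ± 1.86 cpm (2.06, adjusted p = 1.35e-04) and Slc38a1, a sodium-coupled glutamine carrier, at 42.4 ± 9.56 against 14.8 ± 2.72 cpm (1.51, adjusted p = 2.59e-04). Slc43a2, a uniporter of large neutral amino acids, was the 1 that was lower (-1.65, adjusted p = 0.0033), and it missed the threshold without GUCY2Chi mouse 2 or 7 or GUCY2Cmed mouse 2 or 15 (adjusted p of at most 0.0139). Of 7 tested peptide and lysosomal carriers 0 passed in edgeR, limma-voom or DESeq2, and 0 had an unadjusted p under 0.05, with log2 fold changes of 0.35 for Slc15a4, 0.39 for Slc38a9, -0.25 for Ctns and 0.13 for Pqlc2.

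Of 16 tested genes of the amino acid response driven by ATF4, 4 were higher and 4 lower, with the mouse as a block 4 and 0, and 5 and 4 of 15 without GUCY2Chi mice 12 and 15. Vldlr, a lipoprotein receptor, and Asns, asparagine synthetase, were higher (log2 fold changes 2.33 and 1.67, adjusted p = 6.61e-04 and 8.80e-04), and Phgdh, the first enzyme of serine synthesis, was lower (-1.35, adjusted p = 0.00825, or 0.0396 with the block). The call of Phgdh held only without GUCY2Chi mouse 15 or GUCY2Cmed mouse 2 (adjusted p of at most 0.0271 in the other 8 fits). Of 7 tested receptors that sense amino acids and peptides 3 were higher and 1 lower, with the mouse as a block 2 and 1, and 3 and 1 of 6 without GUCY2Chi mice 12 and 15. Gpr142, a receptor for aromatic amino acids, was at 12.1, 11.4, 4.54, 16.0 and 6.11 cpm in GUCY2Chi cells and at most 0.0803 cpm in GUCY2Cmed cells, which is at most 1 read in a library. Grm4, a glutamate receptor, was at 12.4 ± 6.28 against 0.635 ± 0.427 cpm (4.26, adjusted p = 2.69e-04), and Lpar5 was lower (-1.74, adjusted p = 0.00947) with overlap, a call that held without GUCY2Chi mouse 12 or 15 or GUCY2Cmed mouse 7 and was lost in the other 7 fits (adjusted p of at most 0.0353). Gpr142 and Grm4 passed the filter on low counts only through GUCY2Chi libraries, so they entered the count only because they were high there.

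The 5 genes whose level over the 10 libraries was most like the mean of the apical transporters, out of 9655 genes ranked by Pearson's r on log2 cpm, were Slc27a4 (0.997), Fbln1 (0.996), Adipor2 (0.995), Cyp4v3 (0.995) and Cds1 (0.995). Slc27a4 carries fatty acids, and its level was 179 ± 143 against 714 ± 207 cpm. The 10 points share 5 mice and the split into 2 groups, so these values are descriptions.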

How the data were processed

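RNA from 20000 sorted cells per group and mouse was sequenced as paired ends, and reads were aligned with STAR. The authors deposited raw gene counts, FPKM and size-factor scaled values (10 columns of the last, not used here) in a table of 54532 genes. The labels name mm9, limma 3.40.6 and edgeR 3.26.8, but gene positions in the table overlapped GRCm38.p6 RefSeq genes of the same symbol for 99.9% of 37624 symbols and mm9 genes for 9.66% of 28329, so they are given as GRCm38. The deposited FPKM were used only to rank transporters.

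Genes above 0.5 cpm in at least 3 libraries (15703) were tested on the deposited counts with edgeR 4.0.16 (quasi-likelihood, TMM, group as the only term, adjusted p under 0.01) in R 4.3.3. The GUCY2Chi libraries held 13090212 to 13520800 counts and the GUCY2Cmed libraries 10903958 to 15307932. The biological coefficient of variation was 0.458. P-values of this fit and of the ratio permutations treat the 10 libraries as independent and reflect the spread among libraries within a group. They do not measure the spread of the difference within mice. Among the tests, only the fits with the mouse as a block and the sign changes within mice use that pairing. Alternatives were limma-voom (limma 3.58.1), DESeq2 1.42.0, other scalings and filters, each library left out, and the mouse as a block. Libraries with the same number in the labels were taken as those of 1 animal, since 5 mice were each sorted into both groups. The correlation of their deviations from the group means ran from -0.223 to 0.272, and 1 of 5 libraries matched its own number best. Scripts were tested on simulated data of 15703 genes, where 39 of 100 genes changed 4-fold and 2 of 100 genes changed 2-fold were called. Of the unchanged genes 0 were called. In the data 1381 genes were lower and 2186 higher, so far fewer genes changed in the simulation, which also held no mouse effect. Its call rates are therefore not the power of the real comparison. A missed threshold does not show that a gene was unchanged. Ratios used 0.5 added to each count and exact permutation tests in scipy 1.17.1.

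All 10 transporters were named. From each other list at most 4 genes were named, those with the largest change among the genes that passed (among all tested where none passed) with a mean of at least 5 cpm, plus Slc6a20b and Slc7a5. Some genes of this rule, and 1 of the 4 ratios over which p-values were adjusted, are not reported here. Members and lists were chosen with earlier results of these data known. Strand in counting is not given in the sources used here, so overlapping antisense genes cannot be told apart.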

Additional observations from a re-analysis of the deposited data

Results flagged for a closer look

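Slc15a1 was at 12.7 cpm in GUCY2Cmed cells of mouse 7, while the other 4 GUCY2Cmed libraries lay between 31.0 and 37.5 cpm, and the gap to the nearest was 0.739 of the group's range. Slc36a1 was at 15.6 cpm in GUCY2Cmed cells of mouse 15, with the other 4 between 9.29 and 10.4 cpm and a gap of 0.818 of the range. Both gaps exceed Dixon's critical value of 0.71 for 5 samples, which chance passes in about 1 of 20 groups. By this rule 20 groups of transporter levels were examined, and the partner ratios of each group in addition. Causes were not tested.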

How the results depend on the processing

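No alternative turned the direction of any of the 10 transporters. The number of transporters lower in GUCY2Chi cells was 4, and it became 7 with limma-voom (also 7 with a replicate block), 8 with DESeq2, 2 with library size only, 7 without GUCY2Chi mice 12 and 15 and 9 at an adjusted p under 0.05. It became 3 with RLE size factors and 3 with at least 10 counts in every library. Slc3a1 lost its edgeR call in both (adjusted p = 0.0113 and 0.0150). With library size only, Slc3a1 and Slc1a1 lost theirs (edgeR adjusted p = 0.0210 and 0.0180). Genes lower numbered 1797 with limma-voom (1382 with its replicate block), 2235 with DESeq2, 557 with library size only, 779 with the edgeR replicate block, 2186 without GUCY2Chi mice 12 and 15 and 2767 at an adjusted p under 0.05, and genes higher 1294 with the block and 3367 at an adjusted p under 0.05. With library size only the median log2 fold change of all genes moved from 0.09 to 0.39. Leaving out 1 library at a time gave 512 to 1609 genes lower, 1636 to 2534 genes higher, 1 to 6 transporters lower and 0 to 0 higher. The log2 differences of the ratios then ran from -1.87 to -1.26 for Slc7a9 to Slc3a1, from -1.51 to -0.93 for Slc7a7 to Slc3a2 and from -0.50 to -0.26 for Slc7a8 to Slc3a2. With the replicate block, by sign changes within mice, the differences of -1.52 and -1.20 had p = 0.0625 (exact), the smallest 5 mice allow. Apart from Slc1a1 the edgeR block changed the call of no other transporter. The causes were not tested.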
